A study of Mus musculus with 7 samples.

Results

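The miR-23/27/24 microRNAs (miRNAs) were followed in helper (CD4+) T cells, which steer other immune cells, of 2 mouse models of heart disease. The members were taken by name: the 5 guide strands mmu-miR-23a-3p, mmu-miR-27a-3p, mmu-miR-23b-3p, mmu-miR-27b-3p and mmu-miR-24-3p, and the 4 opposite arms mmu-miR-27a-5p, mmu-miR-27b-5p, mmu-miR-24-1-5p and mmu-miR-24-2-5p. The species prefix mmu is left out from here on. All 9 were on the array, among 1881 miRNA names. The cells came from lymph nodes draining the affected tissue and were selected on CD4 with magnetic beads, and their RNA was read on 1-colour Agilent arrays. EAM is a mouse model of myocarditis (4 arrays, day 6 after induction per the sample labels) and LAD a mouse model of myocardial infarction (3 arrays, day 3 per the same labels). The series text gives these days in the opposite order. Strain, age, sex and the way either disease was induced are not given in the sources used here, nor whether each array held cells of 1 mouse or of pooled mice. P-values therefore measure only the spread between these samples, which may be technical. No cells of healthy mice are among the samples, so one model serves as the comparison for the other. The arrays lay on 1 slide with each model in its own column, so disease model, sampling day and position on the slide cannot be told apart.

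A miRNA is cut from a hairpin RNA that has a strand on each side. The guide strand is loaded into an Argonaute protein and lowers the output of mRNAs that pair with its seed, the bases near its 5′ end, while the other strand (the passenger) is mostly degraded. The miR-23/27/24 miRNAs are made from 2 short clusters, each read as 1 primary transcript with a miR-23, a miR-27 and a miR-24 hairpin in that order. In helper T cells this family is known as a restraint on effector programmes. miR-24 and miR-27 are known to limit the type 2 cytokine IL-4, through its mRNA and through the transcription factor GATA3 respectively, and excess miR-27 is known to impair regulatory T cells.

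The sequences show which members a seed joins and which ones an array must tell apart by single bases. They are from RefSeq (build GRCm38.p6), where 8 of the 9 members were matched (all but miR-23b-3p), and the capitals mark the seed, bases 2 to 8.
miR-23a-3p: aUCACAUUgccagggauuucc
miR-27a-3p: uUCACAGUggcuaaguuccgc
miR-27b-3p: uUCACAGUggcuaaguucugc
miR-24-3p: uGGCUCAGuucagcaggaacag
miR-128-3p: uCACAGUGaaccggucucuuu
The miR-27 paralogs share the seed UCACAGU and differ by the single substitution C19U, counted from the 5′ end of miR-27a-3p. miR-128-3p is no member and is shown because its bases 1 to 7 are the miR-27 seed, shifted by 1 base. Among 1679 mature names of the table, 4 others (miR-5124b, miR-6369, miR-6410 and miR-6413) had the seed of miR-24-3p.

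The passenger strands could separate the clusters where miR-24-3p cannot, since that guide is the same molecule from both. In the hairpins of miR-24, the capitals mark miR-24-3p.
Mir24-2, chromosome 8: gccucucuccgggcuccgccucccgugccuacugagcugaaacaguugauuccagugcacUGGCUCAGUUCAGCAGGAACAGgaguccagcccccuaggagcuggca
Mir24-1, chromosome 13: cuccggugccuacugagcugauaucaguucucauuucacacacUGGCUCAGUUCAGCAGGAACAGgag
The passenger strands, with bases 2 to 8 in capitals, diverge more than the guides do.
miR-24-2-5p: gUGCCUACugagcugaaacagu
miR-24-1-5p: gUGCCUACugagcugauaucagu
miR-27a-5p: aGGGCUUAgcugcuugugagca
miR-27b-5p: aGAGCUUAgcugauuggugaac
miR-24-1-5p and miR-24-2-5p share their first 16 bases, and miR-27a-5p and miR-27b-5p are identical at 14 of 22 positions. In the array design (mouse build mm9), the probes of the miR-23a cluster (miR-23a, miR-27a, miR-24-2) spanned chr8:86732466-86732795, a stretch of 330 bases. Those of the miR-23b cluster (miR-23b, miR-27b, miR-24-1) spanned chr13:63401842-63402580, or 739 bases. In the RefSeq table, the nearest coding genes of the miR-23a cluster were Nanos3 and Zswim4 and none overlapped it, while the miR-23b cluster lay within the gene model of Aopep, next to Fancc.

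All 5 guide strands were detected on all 7 arrays, and none of the 4 passenger strands was detected on any. Each miRNA had 30 spots per array. Over the 7 arrays, 210 of 210 spots were well above background for miR-23a-3p, miR-23b-3p, miR-27a-3p and miR-24-3p, and 183 of 210 for miR-27b-3p. The dim miR-27b-3p spots lay on LAD 1, where 18 of 30 were well above background, and on LAD 3, with 15 of 30. For the passenger strands, 2 of 210 spots were well above background for miR-24-1-5p and 0 of 210 for each of miR-24-2-5p, miR-27a-5p and miR-27b-5p. Their median spot signal was 42.1 to 57.0 intensity units per array, beside 45.6 to 50.9 for the negative control spots, so the arrays give no level for these strands. The 5p arms of the miR-23 hairpins, which are no members, were much the same: miR-23a-5p was detected on 1 of 7 arrays (EAM 4), with 3 of 210 spots well above background, and miR-23b-5p on none. No passenger strand thus gave a value by which miR-24-3p could be assigned to a cluster, and its probes read both sources together.

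For each guide strand, the normalized signals of the 2 models overlapped, and the LAD arrays differed more among themselves than the EAM arrays did. Values are log2 of the background-corrected, quantile-normalized signal. Levels of different miRNAs are not compared, because each probe has its own brightness. For miR-23a-3p, the EAM arrays read 9.73, 9.70, 9.87 and 9.79 and the LAD arrays 9.98, 9.59 and 9.45. LAD 1 was above all EAM arrays and the other LAD arrays were below them. miR-24-3p read 9.16, 9.24, 9.20 and 9.19 in EAM and 9.32, 8.96 and 8.57 in LAD, with the same order: LAD 1 on top and LAD 3 at the bottom.

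The miR-23b cluster and miR-27a-3p gave another order. miR-23b-3p read 8.01, 8.17, 8.08 and 8.12 in EAM and 7.86, 8.27 and 7.32 in LAD. Here LAD 2 was the highest of the 7 arrays, and LAD 1 and LAD 3 were below every EAM array. miR-27a-3p read 8.84, 8.65, 8.94 and 8.88 in EAM and 8.66, 8.95 and 7.96 in LAD, with LAD 2 highest and LAD 3 lowest. miR-27b-3p read 7.24, 7.41, 7.43 and 7.50 in EAM and 6.45, 7.63 and 6.29 in LAD, the widest range of the 5. LAD 3 was the lowest array for all 5 guides, and at least 1 LAD array overlapped or exceeded the EAM range for each.

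**Figure D1:**
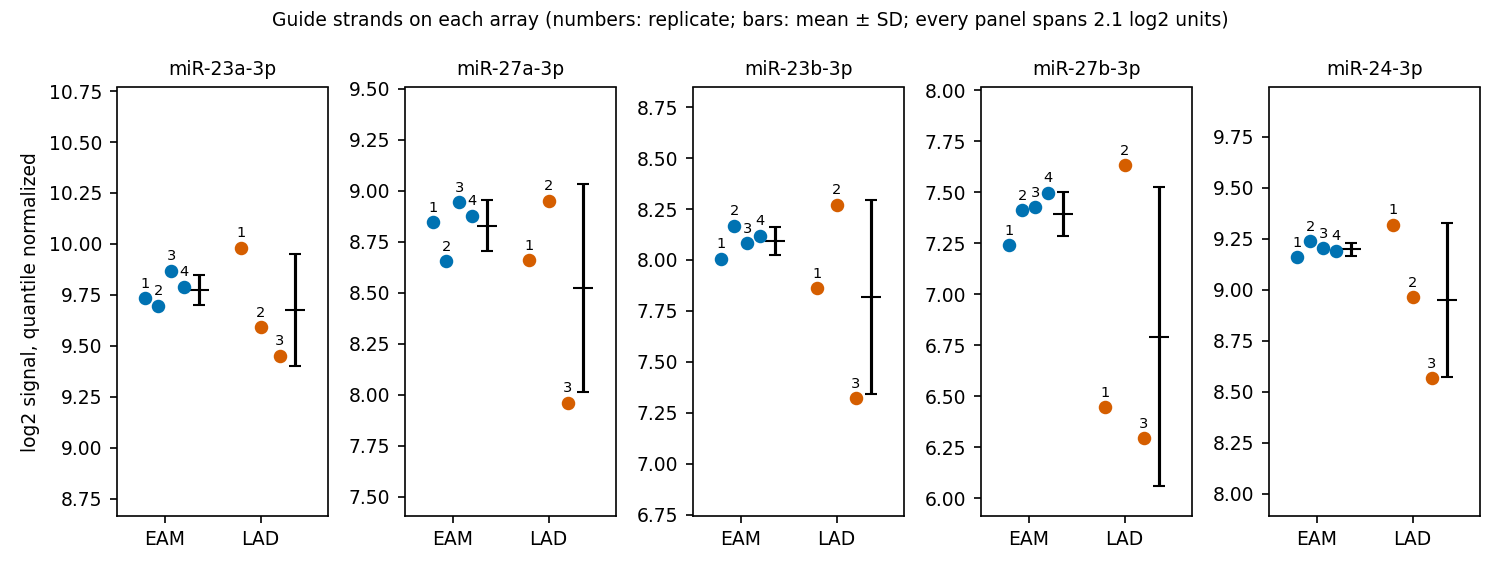
Normalized log2 signal of each guide strand on every array (points, numbered by replicate) with mean and SD of the 4 EAM and 3 LAD arrays; every panel spans the same number of log2 units. LAD 3 is lowest in each panel, LAD 1 is highest for miR-23a-3p and miR-24-3p, and LAD 2 is highest for the other guides.

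The comparison asks whether this family differs between helper T cells of the myocarditis model and of the infarction model. None of the 5 guides passed at an adjusted p of 0.05 in either direction (limma, Benjamini-Hochberg over all 423 tested miRNAs), and 0 of 5 had an unadjusted p under 0.05. Of all tested miRNAs, 59.8% passed, 36.2% as higher in EAM and 23.6% as higher in LAD. The balance of these background calls moved with the scaling: 60.5% of the calls were higher in EAM under the reported values, 99.3% without scaling, 41.1% when arrays were set to the 75th percentile of detected probes, and 35.5% with median centring. The groups overlapped for 5 of 5 guides, whereas they did not overlap for 56.3% of all tested miRNAs, with EAM above LAD for 34%. The 4 passenger strands were not tested.

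The estimates leaned towards EAM. miR-23a-3p averaged 9.77 ± 0.07 (SD) over the 4 EAM arrays and 9.68 ± 0.27 (SD) over the 3 LAD arrays, a difference of 0.096 (95% interval -0.26 to 0.45, limma adjusted p = 0.584). For miR-24-3p the means were 9.20 ± 0.03 and 8.95 ± 0.38, which differed by 0.25 (-0.17 to 0.67, limma adjusted p = 0.242). miR-27a-3p had 8.83 ± 0.12 and 8.52 ± 0.51, a difference of 0.31 (-0.23 to 0.84, limma adjusted p = 0.260). miR-23b-3p had 8.09 ± 0.07 and 7.82 ± 0.48, a difference of 0.28 (-0.22 to 0.78, limma adjusted p = 0.270). The estimate furthest from 0 was that of miR-27b-3p, with 7.39 ± 0.11 and 6.79 ± 0.73, a difference of 0.60 or 1.52-fold (-0.11 to 1.32, limma adjusted p = 0.119). These intervals leave room for differences of up to 1.32 log2 units for miR-27b-3p and up to 0.45 for miR-23a-3p, so they do not show that the models have the same level.

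The guides' median difference was 0.28, beside 0.31 over all tested miRNAs. Their median absolute difference was 0.28, beside 0.57. The median SD of the guides was 0.07 among the EAM arrays and 0.48 among the LAD arrays, beside 0.11 and 0.35 over all tested miRNAs. The SD was larger in LAD than in EAM for 5 of 5 guides and for 398 of 423 tested miRNAs.

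**Figure D2:**
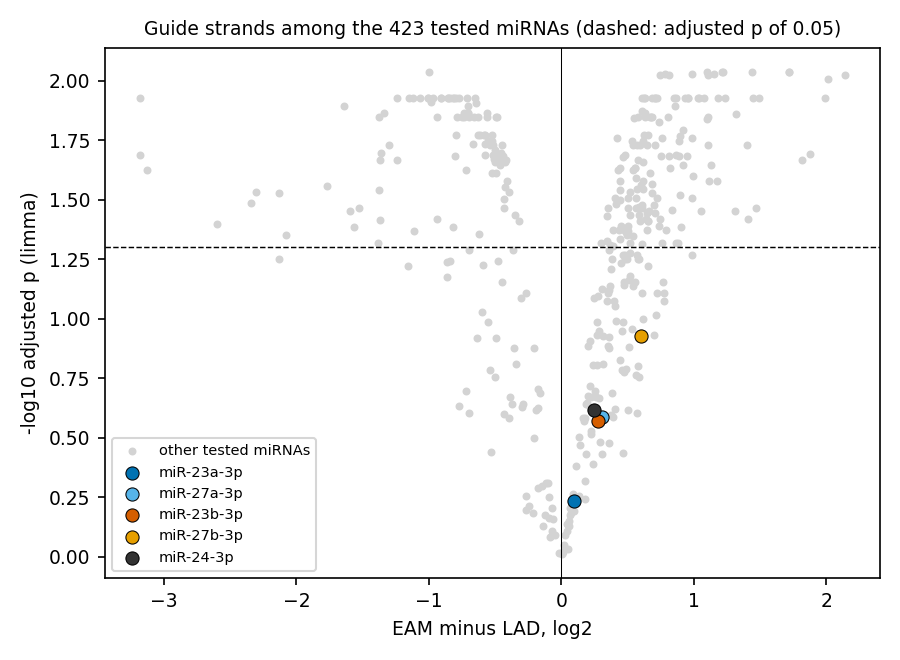
Difference (EAM minus LAD, log2, horizontal) and -log10 of limma's adjusted p (vertical) for the 423 tested miRNAs, with the 5 guides coloured and a dashed line at an adjusted p of 0.05. All 5 guides lie below the line, with differences from 0.096 to 0.60.

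The size of the difference, and the call, depended on how the arrays were scaled to each other. Before scaling, all 5 guides were brighter on every EAM array than on any LAD array. Unscaled miR-23a-3p read 10.17, 10.28, 10.20 and 10.51 in EAM and 8.10, 9.20 and 7.18 in LAD. Unscaled miR-24-3p read 9.58, 9.79, 9.49 and 9.88 in EAM and 7.58, 8.68 and 6.67 in LAD. Both followed the brightness of the whole array: the 75th percentile of the probes detected on all arrays was 865, 943, 799 and 1071 intensity units in EAM and 193, 501 and 124 in LAD. Without scaling, the guides differed by 1.74 (miR-23b-3p) to 2.13 (miR-23a-3p) log2 units, and all 5 passed. The median of all 423 tested miRNAs differed by 1.17, but only 251 of these were detected on all 7 arrays, as the guides were. In bulk RNA such as this, fewer cells of a type and less RNA per cell cannot be told apart, and the part of array brightness in these unscaled differences was not tested.

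**Figure D3:**
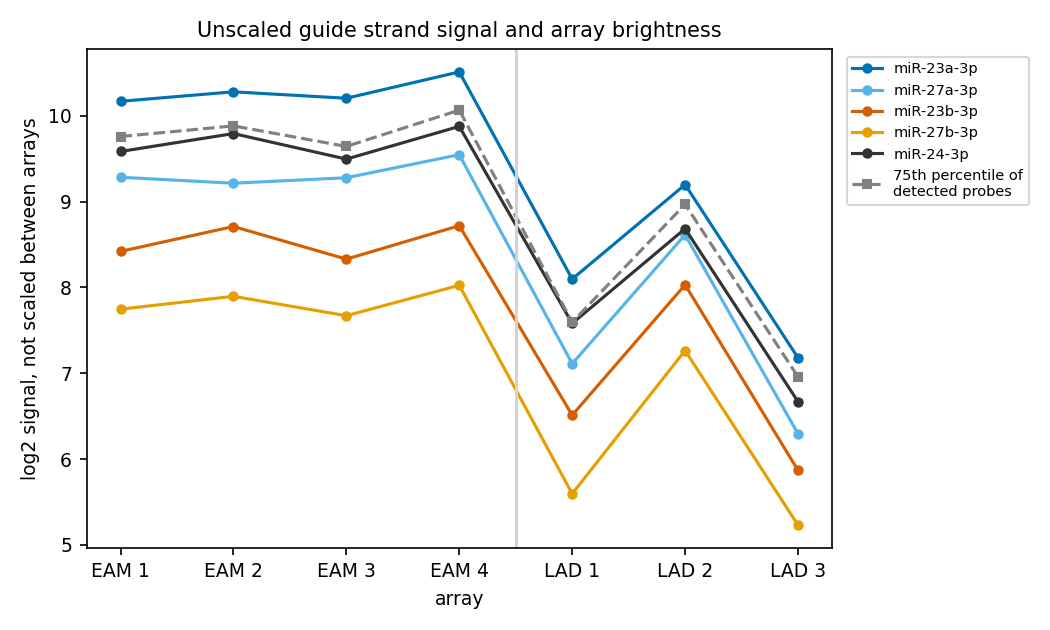
Unscaled log2 signal of the 5 guides on each of the 7 arrays, with the 75th percentile of the probes detected on all arrays as a dashed line. The guides and the percentile drop together on the LAD arrays, to the lowest point on LAD 3, where miR-23a-3p reads 7.18.

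The other sets of values differed in which guides passed. When arrays were set to the 75th percentile of all probes, 4 guides passed as higher in EAM, all but miR-23b-3p (limma adjusted p = 0.0741). With median centring, miR-23a-3p (0.94, limma adjusted p = 0.0207) and miR-24-3p (0.85, limma adjusted p = 0.0283) passed as higher in EAM. In the authors' deposited table, a limma fit called miR-24-3p alone as higher in EAM (0.59, adjusted p = 0.0181). With the 75th percentile of detected probes, without background correction, with local background, with total gene signal, or with the background model fitted on non-control spots, no guide passed. No guide passed as higher in LAD under any of the 9 alternative sets of values. miR-27a-3p, miR-27b-3p and miR-24-3p were higher in EAM under all 9, whereas miR-23a-3p was lower in EAM with total gene signal (-0.081), and miR-23b-3p with the 75th percentile of detected probes (-0.074). The median of all tested miRNAs itself moved between -0.044 and 1.17 over these sets. Relative to that median, miR-27b-3p was higher in EAM in 9 of 9 sets, miR-27a-3p and miR-24-3p in 7, miR-23b-3p in 6 and miR-23a-3p in 5.

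**Figure D4:**
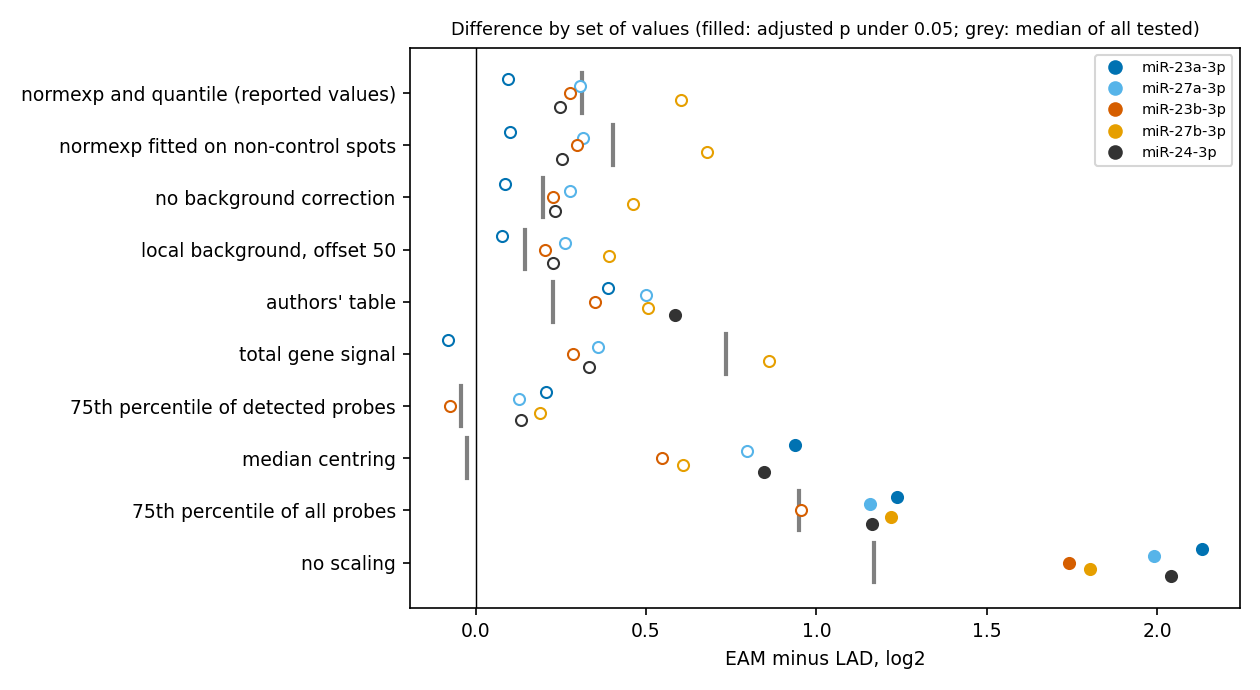
Difference (EAM minus LAD, log2) of each guide under the reported values and 9 alternative sets of values; filled points passed at an adjusted p of 0.05, and grey bars are the median of all tested miRNAs. The number of filled guides goes from 0 under the reported values to 5 without scaling.

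Single LAD arrays also decided the calls. Without LAD 2, where 3 guides were at their highest, miR-27b-3p (1.02, limma adjusted p = 0.000235), miR-23b-3p (0.50, limma adjusted p = 0.0194) and miR-27a-3p (0.52, limma adjusted p = 0.0428) passed as higher in EAM. Without LAD 3, no guide passed and the differences fell to 0.35 for miR-27b-3p and to between -0.015 and 0.057 for the others. With array weights, which count the more variable arrays less, miR-27b-3p (0.97, limma adjusted p = 8.4e-05) and miR-23b-3p (0.29, limma adjusted p = 0.0278) passed, and miR-23a-3p (-0.12) and miR-24-3p (-0.029) turned in sign. Leaving out any EAM array, or LAD 1, gave no call. LAD 1 and LAD 3, which alone form the LAD group without LAD 2, had dim miR-27b-3p spots. On LAD 1, 18 of 30 were well above background, and on LAD 3, 15 of 30. LAD 2 was the brightest LAD array and LAD 3 the dimmest, and the part of brightness in these changes was not tested.

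In the quantile-normalized values, the guides did not vary together over the arrays by cluster. Relative to the EAM mean, LAD 1 stood at 0.21 for miR-23a-3p and 0.12 for miR-24-3p, and at -0.17 for miR-27a-3p, -0.23 for miR-23b-3p and -0.95 for miR-27b-3p. LAD 2 showed the opposite signs: -0.18 for miR-23a-3p and -0.23 for miR-24-3p, and 0.12, 0.18 and 0.24 for miR-27a-3p, miR-23b-3p and miR-27b-3p. On LAD 3, all 5 were below the EAM mean, from -0.32 for miR-23a-3p to -1.10 for miR-27b-3p. miR-27a-3p, from the cluster of miR-23a, thus stood on the side of the miR-23b cluster on both LAD 1 and LAD 2. The authors' table gave the same signs on LAD 2 but not on LAD 1. There miR-24-3p read 8.82 on LAD 1 and 9.01 on LAD 2, both below its EAM mean of 9.33. miR-23a-3p read 9.77 on LAD 1 and 9.565 on LAD 2, both below its EAM mean of 9.87. The other guides were below their EAM means on LAD 1 and above them on LAD 2. On LAD 2, miR-23b-3p read 8.43 (EAM mean 8.29), miR-27a-3p 8.98 (8.95) and miR-27b-3p 7.75 (7.66). Without scaling, all 5 guides were highest on LAD 2 and lowest on LAD 3 among the LAD arrays.

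Profiles centred on their own mean over the 7 arrays gave the same closest pairs, but set miR-27b-3p apart. The smallest root mean square differences between members were 0.12 log2 units, both for miR-23a-3p with miR-24-3p and for miR-23b-3p with miR-27a-3p. miR-23b-3p was closer to miR-24-3p (0.21) than to miR-27b-3p (0.27), and miR-27a-3p was closer to miR-24-3p (0.22) than to miR-27b-3p (0.30). miR-23a-3p and miR-27b-3p were the least alike at 0.51. These distances describe 7 arrays that share a normalization, and 3 LAD arrays carry most of the variation.

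For each guide, the nearest non-member was closer than any other member, but the non-members are far more numerous. Ranked among 250 candidates, miR-23a-3p had rank 3 for miR-24-3p, and miR-24-3p rank 5 for miR-23a-3p. miR-27a-3p had rank 3 for miR-23b-3p, and miR-23b-3p rank 6 for miR-27a-3p. For miR-27b-3p, the nearest member was miR-23b-3p, at rank 32. Among 246 other miRNAs detected on all 7 arrays, the closest to miR-23a-3p were miR-5119 (root mean square difference 0.081, Pearson's r 0.87), miR-30c-5p and miR-26a-5p. Those closest to miR-24-3p were miR-30d-5p (0.086, r 0.95), miR-30c-5p and miR-5119. The closest to miR-23b-3p were miR-30e-5p (0.074, r 0.97), miR-331-3p and miR-7082-5p, and those closest to miR-27a-3p were miR-7082-5p (0.099, r 0.95), miR-1904 and miR-30e-5p. For miR-27b-3p they were miR-17-3p (0.094, r 0.99), miR-669b-5p and miR-374c-5p. The miR-30 miRNAs, a family with a shared seed, were thus among the nearest neighbours of 4 of the 5 guides.

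The balance between paralogs was compared within each array, where a linear scaling of the array cancels. The difference miR-23a-3p minus miR-23b-3p was 1.73, 1.53, 1.79 and 1.67 in EAM and 2.12, 1.32 and 2.13 in LAD. The difference miR-27a-3p minus miR-27b-3p was 1.60, 1.24, 1.52 and 1.38 in EAM and 2.21, 1.32 and 1.67 in LAD. LAD 1 and LAD 3 were above every EAM array in both, and LAD 2 lay below every EAM array in the first and within their range in the second. The groups overlapped in both, and the change between models was -0.18 for the miR-23 pair (two-sided exact permutation p = 0.514) and -0.30 for the miR-27 pair (two-sided exact permutation p = 0.286).

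miR-24-3p, set against the mean of the other 4 guides, changed by -0.071 between models (two-sided exact permutation p = 0.686). Adjusted over the 3 pairs compared, each p was 0.686. With 35 splits of 4 and 3 arrays, the smallest possible p is 0.0571, so this design cannot reach 0.05. Without scaling the miR-23 pair differed the other way, by 0.39, from 1.57 to 1.87 in EAM and 1.17 to 1.59 in LAD. Quantile normalization is not a linear scaling and does not cancel. The difference between the miR-24-2-5p and miR-24-1-5p strands, and between the arms of a hairpin, could not be computed, since no passenger strand was detected.

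How well paralogs are told apart rests on the probes. The 17-base probes of the miR-27 guides are shown because they differ by 1 base, in capitals.
miR-27a-3p probe: gcGgaacttagccactg
miR-27b-3p probe: gcAgaacttagccactg
They differ by G3A, counted from the 5′ end of the probe, which pairs with the 3′ end of the miRNA. The 17-base probes of miR-23a-3p and miR-23b-3p likewise differ at 1 position, A3T. Signal of one paralog on the other's probe was not measured here, so each value can hold some of both. No guide had a saturated spot.

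Each guide had 2 probes of different length, and they disagreed on the size of the difference. The longer probe of miR-23a-3p gave -0.19 and the shorter one 0.38, so the sign for this guide depended on the probe. For miR-23b-3p the longer probe gave 0.075 and the shorter 0.48. The probes of miR-27a-3p gave 0.22 and 0.39, those of miR-27b-3p 0.54 and 0.66, and those of miR-24-3p 0.19 and 0.31, in the same order. The shorter probe was dimmer in 5 of 5 guides, and in 180 of the 212 miRNAs with such probes that were detected on all arrays. It gave the larger EAM minus LAD difference in 5 of 5 guides, in 71.7% of those 212 and in 56.5% of all 347 tested miRNAs with such probes. Without scaling, the shorter probe gave the larger difference in 0 of 5 guides, in 39.2% of the 212 and in 33.4% of the 347. The unscaled probes of miR-23a-3p gave 2.14 and 2.12, and those of miR-27b-3p 1.99 and 1.62, longer first.

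**Figure D5:**
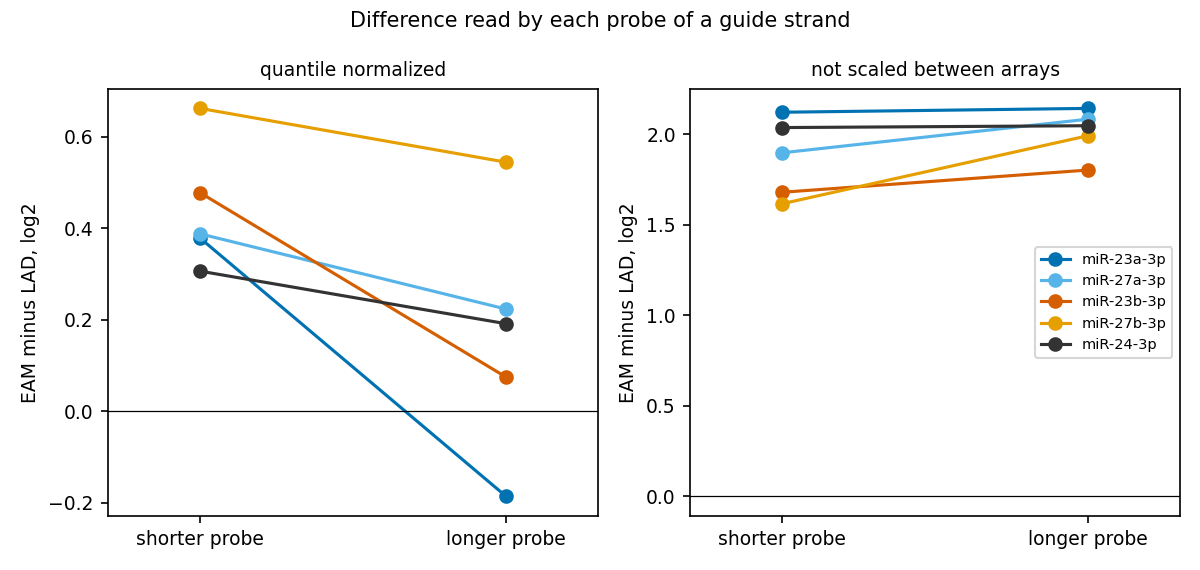
Difference (EAM minus LAD, log2) read by the shorter and the longer probe of each guide, with quantile normalization (left) and without scaling (right). On the left all 5 lines fall towards the longer probe, to -0.19 for miR-23a-3p; on the right none does.

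The other miRNAs known to act in helper T cells moved in both directions. Of a list of 26, 21 were tested: 6 were higher in EAM, 2 were higher in LAD and 13 did not pass, with a median difference of 0.045. The percentages for all tested miRNAs are those given for the guides. miR-146a-5p, a brake on NF-kB signalling, was 1.88 log2 units higher in EAM (limma adjusted p = 0.0204), and miR-155-5p, which promotes effector responses, 1.12 higher (limma adjusted p = 0.0264). miR-181a-5p, which tunes T cell receptor signalling, was lower in EAM (-3.18, limma adjusted p = 0.0118), and miR-19b-3p of the miR-17-92 cluster was lower as well (-0.72, limma adjusted p = 0.0236). The direction of miR-19b-3p turned with the scaling: it was 0.83 with the 75th percentile over all probes, 0.58 with median centring, and 1.78 without scaling, where it passed as higher in EAM (limma adjusted p = 0.0289). It passed as lower in EAM under 9 of 22 alternatives. The other 3 kept their direction under all 22 and passed under 19 (miR-181a-5p), 16 (miR-146a-5p) and 13 (miR-155-5p). Without LAD 3, neither miR-146a-5p (limma adjusted p = 0.0701) nor miR-155-5p (limma adjusted p = 0.0863) passed. With an unmoderated test of unequal variances, or the replicate number as a block, none of the 21 passed. Without any 1 EAM array or without LAD 3, 0 or 1 was higher in EAM and 1 in LAD, and without LAD 1, 8 were higher in LAD.

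miR-128-3p, whose 5′ end resembles the miR-27 seed, read 6.87, 7.32, 6.87 and 7.17 in EAM and 6.91, 11.05 and 9.60 in LAD. The LAD arrays thus ranged from the EAM level up to 11.05, and the groups overlapped (-2.13, limma adjusted p = 0.0559). Without LAD 1 the difference was -3.27 and passed (limma adjusted p = 0.00234), without LAD 2 it was -1.20, and with array weights it was -0.24. On LAD 2 and LAD 3, miR-128-3p was above every EAM array, while miR-27b-3p was above them on LAD 2 and below them on LAD 3.

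The cell type was checked with marker miRNAs. All 5 leukocyte markers were detected on all 7 arrays, and none of them is particular to CD4+ T cells. miR-142a-3p, which blood cells of every lineage carry, read 15.25 ± 0.10 (SD) over the EAM arrays and 14.89 ± 0.05 (SD) over the LAD arrays. The SD over the LAD arrays was larger for the others: 0.20 for miR-142a-5p, 0.80 for miR-155-5p, 0.82 for miR-342-3p and 1.20 for miR-150-5p. miR-150-5p read 12.42 to 12.52 in EAM and 12.19, 9.81 and 11.19 in LAD, lowest on LAD 2. Of these 5, 3 passed as higher in EAM, miR-142a-3p among them (0.35, limma adjusted p = 0.0341), beside 36.2% of all tested miRNAs. The median difference of the 5 was 0.58, beside 0.31 over all tested miRNAs. Markers of heart and skeletal muscle, liver, smooth muscle and stroma were detected on no array. Of the endothelial markers, miR-126a-5p was detected on no array. miR-126a-3p was detected on 3 EAM and 2 LAD arrays, so it was not tested. It read 4.79 to 5.17 in EAM and 4.36, 5.90 and 5.28 in LAD. Of the 22 markers of other cell types, 7 were tested, 4 passed as higher in EAM (all epithelial; 2 without EAM 2, EAM 3, EAM 4, LAD 1 or LAD 3) and 1 as higher in LAD, beside 36.2% and 23.6% of all tested miRNAs. The 4 epithelial markers were detected on all 4 EAM arrays and on 0 or 1 LAD arrays, so they entered the test only through the group where they were high. Over miRNAs detected on all 7 arrays, which hold no epithelial marker, 0 markers of other cell types passed as higher in EAM. The marker higher in LAD was miR-223-3p of myeloid cells, at 6.43, 6.48, 6.73 and 6.72 in EAM and 9.19, 7.78 and 7.71 in LAD (-1.64, limma adjusted p = 0.0127; -0.015 without scaling). The red-cell marker miR-451a read 6.51 to 7.10 in EAM and 6.22 to 7.79 in LAD, highest on LAD 1 (-0.14, limma adjusted p = 0.740). The summed signal of the 6 epithelial markers was 7.61 to 7.93 in EAM and 7.04 to 7.35 in LAD. LAD 1, where both of the blood markers were highest, was also the array on which miR-23a-3p and miR-24-3p were highest in the quantile-normalized values. In the authors' table and without scaling, both guides were lower on LAD 1 than on every EAM array. Among the LAD arrays, all 5 leukocyte markers were also highest on LAD 1 in the quantile-normalized values. For example, miR-342-3p read 11.16 on LAD 1, beside 9.53 on LAD 2 and 10.43 on LAD 3. The other markers of myeloid cells and red cells were detected on no array. The part of other cell types in the guides' values was not tested.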

How the data were processed

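Per the labels' protocols, each array took 100 ng of total RNA, to which Cy3 was ligated at the 3′ end. The deposited scanner files hold intensity per spot, not scaled between arrays, and other columns that mark detection, saturation and outliers, read by Agilent Feature Extraction 10.7.3.1, per the file headers. The authors' table holds log2 values per miRNA; the submitters' processing notes name RMA, without a role, and other steps are not given in the sources used here. Here, mean spot intensity was background-corrected (normexp of limma 3.58.1 in R 4.3.3, fitted on all spots, no offset), quantile normalized over 56430 non-control spots, log2 transformed, and summarized as the median of replicate spots without outliers and then by median polish over probes. A miRNA was tested if all arrays of EAM or all arrays of LAD detected it (423 in all), with limma's lmFit and eBayes, as EAM minus LAD, with Benjamini-Hochberg adjustment and a threshold of 0.05. The 2 groups share 1 variance estimate per miRNA, and the smaller LAD group varied more, so its p-values can be too small. Paralog differences were compared by exact permutation over 35 splits. Precision is limited by the number of arrays. The script was tested on simulated data in which both groups had the same SD, so that test does not cover the larger spread among the LAD arrays.

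The named miRNAs were the members, the 5p arms of miR-23, the 3 most alike miRNAs per guide, the 4 of the helper T list with the smallest p, miR-128-3p, and those markers of other cell types that all 7 arrays detected. The leukocyte markers other than miR-155-5p, and the endothelial markers, were named outside this rule, after their values were seen. The members and lists were chosen with earlier results of these data known. Alternatives were 9 other sets of values, 6 other fits, and leaving out each array; the background model fitted on non-control spots was chosen after seeing the data.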

Additional observations from a re-analysis of the deposited data

How the results depend on the processing

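None of the 5 guides passed under 16 of the 22 alternatives, and none passed as higher in LAD under any. As higher in EAM, 4 passed with the 75th percentile of all probes, 2 with array weights, 1 in the authors' table, 2 with median centring and 5 without scaling; leaving out single arrays gave 0 to 3. miR-23a-3p reversed with array weights (-0.12), total gene signal (-0.081) and without LAD 3 (-0.015; leaving out single arrays gave -0.015 to 0.25). miR-23b-3p reversed (-0.074) when arrays were set to the 75th percentile of detected probes, and miR-24-3p with array weights (-0.029). Of the within-array changes, miR-23a-3p minus miR-23b-3p reversed with either 75th percentile (0.28), with median centring or no scaling (0.39) and in the authors' table (0.037). miR-27a-3p minus miR-27b-3p reversed with median centring or no scaling (0.19). miR-24-3p against the mean of the other guides reversed with either 75th percentile (0.023), with median centring or no scaling (0.13), in the authors' table (0.15) and without LAD 1 (0.095; leaving out single arrays gave -0.27 to 0.095). The cause was not tested.

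Of the helper T list, the count higher in EAM was 10 with the 75th percentile of all probes, 15 without scaling, 1 with total gene signal and 0 with unequal variances, and 0 to 8 when single arrays were left out. The count higher in LAD was 1 with the 75th percentile of all probes, with total gene signal and in the authors' table, 4 with an intensity trend, 0 without scaling or with unequal variances, and 1 to 8 when single arrays were left out (8 without LAD 1). Of the markers of other cell types, the count higher in EAM was 2 with the 75th percentile of detected probes or total gene signal, 1 with median centring, 0 with unequal variances or over miRNAs detected on all 7 arrays, and 2 to 5 when single arrays were left out. The count higher in LAD was 0 without scaling or with unequal variances and 2 with array weights. The cause was not tested.

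The labels number replicates in both groups. Same-numbered arrays did not deviate together (correlations 0.20, -0.16 and -0.19), but so few correlations cannot show whether the numbers pair arrays. With the replicate number as a block, 0 guides passed, the guides' differences were 0.091 to 0.57, and the counts of both lists were 0 in both directions.

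Signal over background limits miR-27b-3p on LAD 1 and LAD 3, and gives no level for the passenger strands.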
